A study of Mus musculus with 9 samples.

Results

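The cytosolic ribosome of the mouse is built from ribosomal RNA and a fixed set of ribosomal proteins, named Rps in the small (40S) subunit and Rpl in the large (60S) subunit. The genes for these proteins were taken from the deposited expression table by symbol: names that begin with Rps or Rpl and a number, and Rpsa, Rplp0, Rplp1 and Rplp2, leaving out pseudogenes, ribosomal S6 kinases and 6 named paralogs. The rule found 79 genes among 14912 rows, 32 of the small subunit and 47 of the large subunit. The rule uses names and no measured value. Of the 79, 78 passed a filter on low values and were tested, and Rpl26, with 0 to 7.38 normalized counts in any library, did not pass. Rpl36al and Rps4y2 fall under the rule by name but are copies of other members. GENCODE M21 annotates Rps4y2 as a transcribed processed pseudogene, and it had at most 9.84 normalized counts.

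The 3 groups of CD4+ T cells, each with 3 libraries, came from mice of the strain B6.Cg-Foxp3tm2(EGFP)Tch/J, hemizygous for Foxp3<tm2Tch>, which carry a green fluorescent reporter of Foxp3, the transcription factor that marks regulatory T (Treg) cells. The mTO-iTreg cells were Foxp3 eGFP+ CD4+ cells at day 5 of co-culture with murine colorectal cancer (CRC) tumour organoids, with 20 U/ml of IL-2 and stimulating anti-CD3 and anti-CD28, each at 1 µg/ml. The TGFβ-iTreg cells were Foxp3 eGFP+ CD4+ cells at day 5 of culture with TGFβ at 10 ng/ml, IL-2 at 300 U/ml and anti-CD3 and anti-CD28 at the same 1 µg/ml. The day 0 cells were Foxp3 eGFP- CD4+ T cells before culture. The age of the animals was not given, nor whether each library of a group stands for its own animal or culture. The p-values therefore measure only the spread between these libraries, which may be technical. The mTO-iTreg cells differed from the TGFβ-iTreg cells in the organoids, in TGFβ and in the dose of IL-2, and their libraries carried codes of another form than those of the other 2 groups. These differences cannot be told apart here.

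Ribosomal proteins are made in near-equal numbers, because each ribosome holds 1 copy of nearly every protein, and surplus protein is degraded. Their mRNAs belong to the 5′ TOP class, which starts with a run of pyrimidines and whose translation is controlled by the kinase complex mTORC1 through the RNA-binding protein LARP1. Resting T cells hold many of these mRNAs and begin to translate them when the T cell receptor and CD28 are engaged. A level of mRNA is therefore not a level of ribosomes.

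The libraries held 7551177, 7969853 and 7665711 counts in mTO-iTreg cells, 2078223, 7222895 and 9944952 in TGFβ-iTreg cells and 3432420, 2267922 and 5328169 in day 0 cells. Foxp3, read against the reporter sort, had 37.2 to 81.0 normalized counts in mTO-iTreg cells, 14.8 to 19.7 in TGFβ-iTreg cells and 0 to 8.77 in day 0 cells. Of 8 markers of T cells, 7 were listed, and they summed to between 16379 and 28732 normalized counts in every library. Of 7 B cell markers, 6 were listed, and they summed to 442 to 528 in mTO-iTreg cells, 142 to 268 in TGFβ-iTreg cells and 425 to 3390 in day 0 cells, with the highest value in replicate 3. Of 12 epithelial markers, 7 were listed, and they summed to 43.7 to 125 in mTO-iTreg cells, 135 to 141 in TGFβ-iTreg cells and 18.8 to 24.3 in day 0 cells. Of 8 myeloid markers, 5 were listed, and they summed to 8.68 to 47.1 in mTO-iTreg cells, 8.40 to 29.8 in TGFβ-iTreg cells and 107 to 341 in day 0 cells. The 2 markers of CD8 T cells summed to 93.0 to 149 in any library, and 1 of 6 erythroid markers was listed, with at most 0.682. Reads of the mitochondrial genome took 12.2% to 12.5% of the counts in mTO-iTreg cells, 10.4% to 12.3% in TGFβ-iTreg cells and 17.4% to 19.6% in day 0 cells. The part of these other cells and of the mitochondrial share in the results on ribosomal proteins was not tested, beyond the values without single libraries and under other scalings given beside them. In bulk libraries such as these, fewer cells of a type and less RNA per cell cannot be told apart.

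Ribosomal protein genes took a slightly higher share of all counts in mTO-iTreg cells than in the other 2 groups, and the share was divided differently between the subunits. The members together took 27.4%, 26.4% and 26.1% of the counts in mTO-iTreg cells, 25.0%, 26.0% and 23.3% in TGFβ-iTreg cells and 24.5%, 25.7% and 24.7% in day 0 cells. The mTO-iTreg libraries held the 3 highest shares, and the TGFβ-iTreg and day 0 libraries overlapped. These totals include mitochondrial reads, at a mean of 12.3% in mTO-iTreg cells, 11.6% in TGFβ-iTreg cells and 18.6% in day 0 cells. A larger mitochondrial part lowers the share of all other genes, so leaving these reads out would raise the members' share most in day 0 cells. The members' share outside these reads was not taken. The higher share in mTO-iTreg against day 0 cells and the overlap of TGFβ-iTreg and day 0 libraries therefore hold for all counts only. The large subunit's genes took 15.6% ± 0.33 of the counts in mTO-iTreg cells, 13.3% ± 0.70 in TGFβ-iTreg cells and 13.3% ± 0.27 in day 0 cells (SD, n = 3 each), and the small subunit's genes 11.1% ± 0.37, 11.5% ± 0.64 and 11.7% ± 0.37 in the same order of groups. The 95% Wilson interval of the members' share reached at most 0.0589 percentage points to either side, which covers counting error only.

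The ratio of summed large-subunit to summed small-subunit counts does not depend on the factor by which a whole library is divided. Quantile normalization is not such a division, and the ratio was not taken under it. It was 1.39, 1.38 and 1.44 in mTO-iTreg cells, 1.13, 1.16 and 1.16 in TGFβ-iTreg cells and 1.14, 1.12 and 1.15 in day 0 cells. All 3 mTO-iTreg libraries lay above the other 6 libraries, among which the TGFβ-iTreg and day 0 ranges overlapped. Leaving out each of the 79 members in turn kept the 3 mTO-iTreg libraries above the other 6 in 79 of 79 cases, with a smallest gap of 0.134, against 0.217 with all members. With several members left out the difference was smaller. Without the 2 members whose levels differed most between the iTreg groups, the ratio averaged 1.34 ± 0.04 in mTO-iTreg cells, 1.22 ± 0.02 in TGFβ-iTreg cells and 1.20 ± 0.01 in day 0 cells (SD, n = 3 each), and the gap was 0.0584. Without the 5 that differed most, it averaged 1.48 ± 0.04 in mTO-iTreg cells, 1.36 ± 0.02 in TGFβ-iTreg cells and 1.35 ± 0.01 in day 0 cells, and the gap was 0.0652. The ratio is given as a description, with no test.

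**Figure D1:**
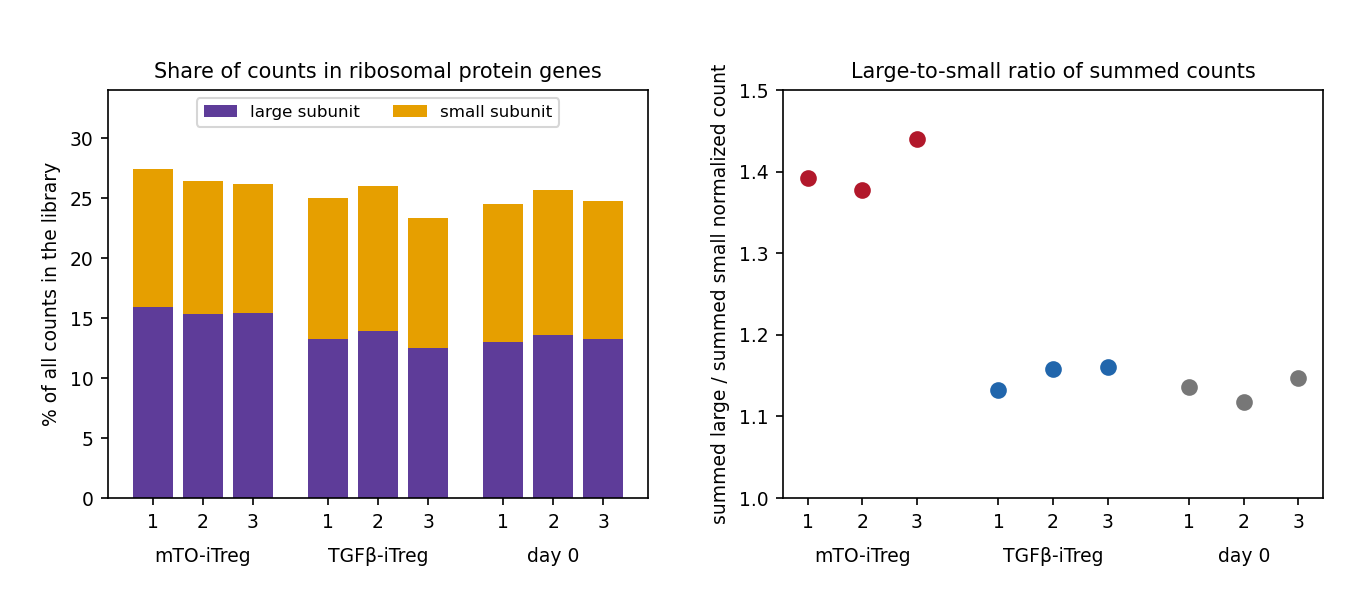
Left, the percentage of all counts in each library that fell on large-subunit and small-subunit genes (stacked bars, 3 replicate libraries a group). Right, the ratio of the 2 sums in each library (axis from 1 to 1.5) over all 79 members. The mTO-iTreg libraries lie at 1.38 to 1.44, above the other 6 libraries at 1.12 to 1.16.

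Changes were tested for all 10983 rows that passed the filter with limma on log2(normalized count + 1), and called at an adjusted p (Benjamini-Hochberg over all these rows) under 0.05. A log2 change is that of the first-named group over the second. Of the 78 members tested, 21 were higher and 22 lower in mTO-iTreg cells than in day 0 cells, where 19.4% of all rows were called higher and 14.5% lower. In TGFβ-iTreg cells against day 0 cells, 2 members were higher and 22 lower, beside 9.78% and 8.8% of all rows. In mTO-iTreg cells against TGFβ-iTreg cells, 27 members were higher and 9 lower, beside 14.9% and 11.8% of all rows. The last counts were 13 higher and 7 lower with no variance trend in the fit, and 20 higher and 16 lower with the libraries centred on the members' own mean. The members called in either direction made up 55.1%, 30.8% and 46.2% of those tested in the 3 comparisons, against a background of 33.9%, 18.6% and 26.6%. The 2 comparisons with day 0 share their day 0 libraries.

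Counted by libraries that do not overlap, 29 members lay higher and 31 lower in mTO-iTreg than in day 0 cells, beside 25.8% and 20.3% of all rows. In TGFβ-iTreg against day 0 cells, 4 lay higher and 39 lower, beside 18% and 17.8% of all rows. In mTO-iTreg against TGFβ-iTreg cells, 38 lay higher and 14 lower, beside 25.9% and 18.7% of all rows.

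The subunits moved apart in mTO-iTreg cells. Against day 0, 16 of 46 large-subunit genes rose and 9 fell, with a median log2 change of 0.11, whereas 5 of 32 small-subunit genes rose and 13 fell, with a median of -0.23. Over all tested rows 19.4% rose and 14.5% fell, and the median was 0.09. Against TGFβ-iTreg cells, 20 large-subunit genes were higher and 3 lower (median 0.26), and 7 small-subunit genes were higher and 6 lower (median 0.00). Of all rows, 14.9% were higher and 11.8% lower, with a median of 0.13, which lies between the medians of the subunits. In TGFβ-iTreg cells against day 0, 2 large-subunit genes rose and 12 fell (median -0.16), and 0 small-subunit genes rose and 10 fell (median -0.24). Of all rows, 9.78% rose and 8.8% fell, with a median of -0.02. None of these medians was tested.

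**Figure D2:**
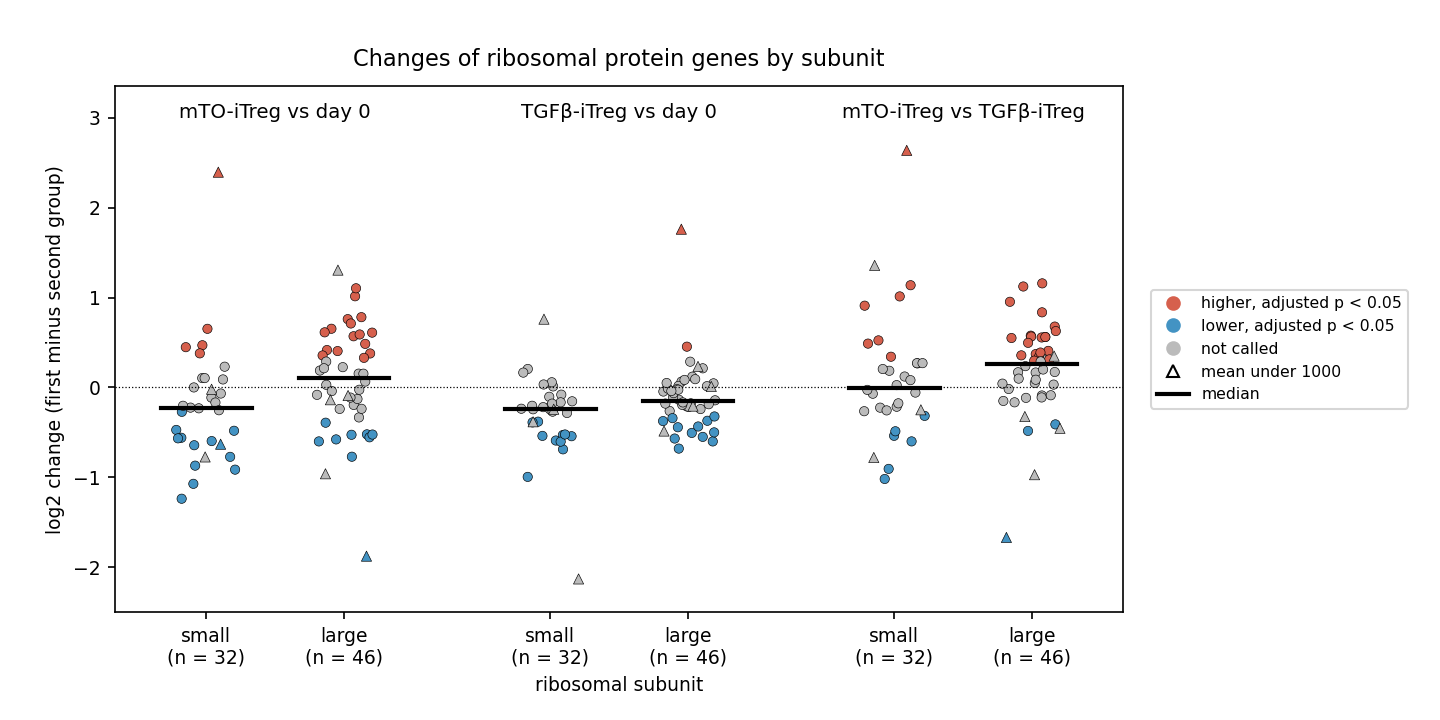
Log2 change of every tested ribosomal protein gene (points), by subunit, in the 3 comparisons, with black bars at the medians. Red and blue points were called higher and lower at an adjusted p under 0.05, grey points were not called, and triangles mark genes with a mean under 1000 normalized counts. The large-subunit median lies above the small-subunit median in each comparison, by most in mTO-iTreg against day 0 cells (0.11 and -0.23).

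The direction of the whole set against day 0 depended on the scaling of the libraries. With each library scaled to the same total, 32 members were higher and 18 lower in mTO-iTreg cells, beside 2732 and 1148 of all 10983 rows. In TGFβ-iTreg cells 11 members were higher and 9 lower, beside 1791 and 584 of all rows. The members' medians were 0.13 and 0.05, under the medians of all rows, which moved to 0.31 and 0.22. After quantile normalization the counts were 35 higher and 13 lower in mTO-iTreg cells, beside 1892 and 1971 of all rows. In TGFβ-iTreg cells they were 12 higher and 5 lower, beside 1053 and 899 of all rows. The members' medians were then 0.20 and 0.06, above those of all rows at -0.07 and -0.02. The order of the subunits did not turn: the large-subunit median against day 0 in mTO-iTreg cells was 0.33 with equal totals and 0.44 after quantile normalization, and the small-subunit median -0.01 and 0.03. Without day 0 replicate 3, the library with the highest B cell markers, 18 members were higher and 22 lower in mTO-iTreg cells. Of all 10815 rows tested then, 1998 were higher and 1385 lower. In TGFβ-iTreg cells 2 members were higher and 23 lower, beside 1009 and 752 of all rows.

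The deposited scaling and 6 others were therefore compared gene by gene. In mTO-iTreg against day 0 cells, 19 of 78 members were called higher and 9 lower under all 7 scalings, beside 16.2% and 9.86% of all rows. In TGFβ-iTreg against day 0 cells this held for 2 higher (Rpl24 and Rpl34) and 5 lower members (Rps16, Rps24, Rps29, Rpl10 and Rpl21), beside 9.31% and 5.12% of all rows. In mTO-iTreg against TGFβ-iTreg cells it held for 20 higher and 9 lower members, beside 10.6% and 11.2% of all rows. Most of the changes were small. Among the 69 members with a mean of at least 1000 normalized counts, 42, 55 and 49 changed by less than 0.5 on the log2 scale in the 3 comparisons, and Rpl29, Rps15, Rps16, Rps25 and Rpsa were among the few that passed 1 in either direction in any of them. The coefficient of variation between the 3 libraries of a group had a median of 6.55% in mTO-iTreg cells, 5.94% in TGFβ-iTreg cells and 6.25% in day 0 cells over these 69 genes.

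**Figure D3:**
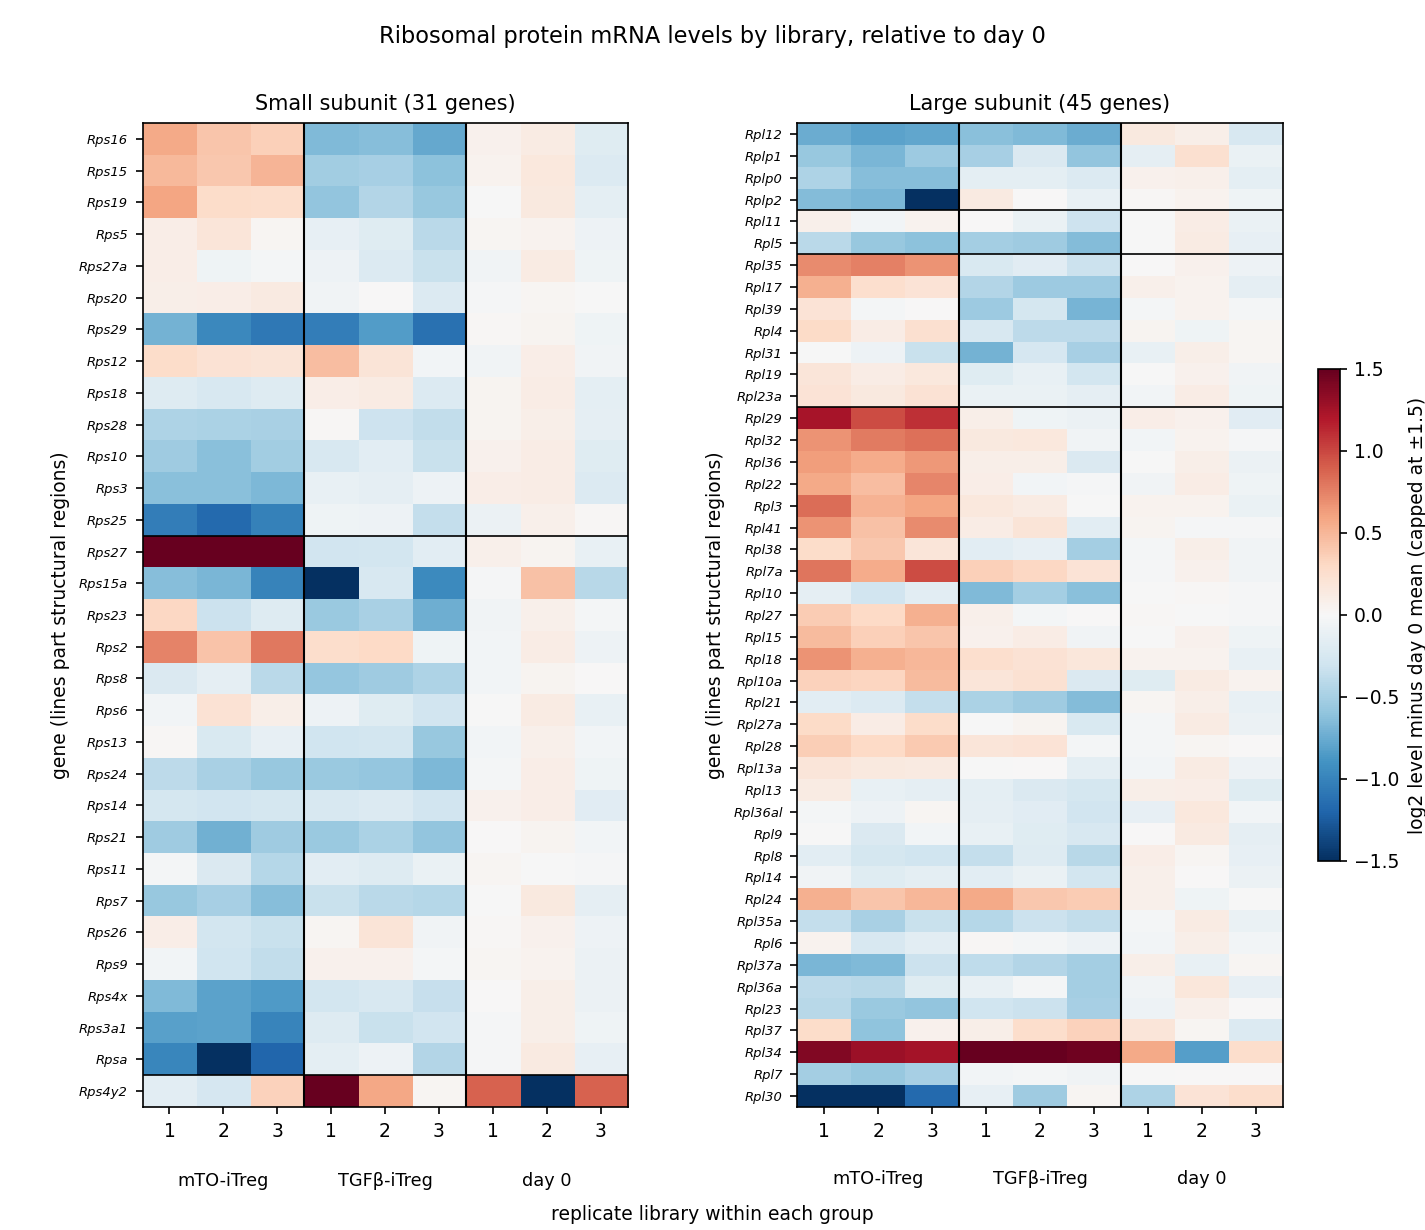
Level of 76 of the 78 tested genes in each library, as log2(normalized count + 1) minus the mean of the day 0 libraries, for the small subunit (left) and the large subunit (right). Lines part the structural regions (40S head, then body and platform, then Rps4y2; 60S stalk, 5S particle, exit tunnel, then the rest), and colours are capped at 1.5. Red rows in the mTO-iTreg columns, such as Rpl29 and Rpl32, have pale TGFβ-iTreg columns, and Rps29 and Rpl12 are blue in both iTreg groups.

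Among large-subunit proteins outside the stalk, the tunnel and the 5S particle, 14 of 33 genes were higher in mTO-iTreg than in day 0 cells. Another 5 were lower. Of all rows, 19.4% were called higher and 14.5% lower there. Rpl29, a small basic 60S protein (chr9:106429454-106431568, mm10, plus strand), had 5637, 4736 and 5105 normalized counts in mTO-iTreg cells, 2553, 2295 and 2250 in TGFβ-iTreg cells and 2565, 2511 and 2133 in day 0 cells. The groups of mTO-iTreg and other libraries did not overlap, and the change was 1.10 ± 0.12 against day 0 (limma adjusted p = 1.16e-05) and 1.12 ± 0.12 against TGFβ-iTreg cells (adjusted p = 1.62e-05). In TGFβ-iTreg against day 0 cells Rpl29 was not called (limma adjusted p = 0.935).

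Further large-subunit genes followed the same order with smaller sizes. Rpl32 rose by 0.76 ± 0.10 against day 0 in mTO-iTreg cells, with 6017, 6506 and 6716 normalized counts there, 4184, 4226 and 3640 in TGFβ-iTreg cells and 3679, 3930 and 3744 in day 0 cells. Rpl7a rose by 0.78 ± 0.12, with 3721, 3148 and 4209 in mTO-iTreg cells, 2723, 2635 and 2450 in TGFβ-iTreg cells and 2114, 2236 and 2051 in day 0 cells. Rpl3, which lies by the peptidyl transferase centre, rose by 0.65 ± 0.11, and its 3 mTO-iTreg values (11848 to 14720) lay above all values of TGFβ-iTreg (8207 to 9150) and day 0 cells (7654 to 8537). For each of these 3 genes the adjusted p by limma was at most 0.000451 against day 0. Rpl22, which in mice is dispensable for the ribosome in most tissues but needed for the development of αβ T cells, had 7503, 6938 and 8406 in mTO-iTreg cells, 5421, 4905 and 4973 in TGFβ-iTreg cells and 4862, 5465 and 4839 in day 0 cells. It was higher in mTO-iTreg cells by 0.59 ± 0.11 against day 0 (limma adjusted p = 0.000858) and by 0.58 ± 0.11 against TGFβ-iTreg cells (adjusted p = 0.00153).

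Rpl24, a late-joining protein of the 60S surface that bridges to the small subunit, was the well-read member that rose in both iTreg groups. It had 17193, 15949 and 16856 normalized counts in mTO-iTreg cells, 17721, 15810 and 15466 in TGFβ-iTreg cells and 12525, 11354 and 11875 in day 0 cells. All 6 iTreg libraries lay above the 3 day 0 libraries, and the log2 change against day 0 was 0.48 ± 0.10 in mTO-iTreg cells (limma adjusted p = 0.00174) and 0.45 ± 0.10 in TGFβ-iTreg cells (adjusted p = 0.00579). The call in TGFβ-iTreg cells was lost without the shallowest day 0 and TGFβ-iTreg libraries and without a variance trend.

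Other large-subunit genes were lower in one iTreg group. Rpl7 had 21595, 20826 and 21846 normalized counts in mTO-iTreg cells, 29983, 30285 and 29632 in TGFβ-iTreg cells and 30676, 30829 and 30942 in day 0 cells. It was lower in mTO-iTreg cells by -0.48 ± 0.09 against TGFβ-iTreg cells (limma adjusted p = 0.00128) and by -0.52 ± 0.09 against day 0 (adjusted p = 0.00047), the second call being lost after quantile normalization. Rpl10, the last protein to join the 60S subunit and a neighbour of the peptidyl transferase centre, had 16866, 15098 and 16490 in mTO-iTreg cells, 11683, 12934 and 11939 in TGFβ-iTreg cells and 18430, 18739 and 18252 in day 0 cells. Its fall of -0.60 ± 0.09 in TGFβ-iTreg against day 0 cells (limma adjusted p = 0.000707) stood beside -0.20 ± 0.09 in mTO-iTreg cells, which was not called (adjusted p = 0.126). Under 1 of the 7 scalings Rpl10 was called lower in mTO-iTreg than in day 0 cells. Between the iTreg groups it was higher in mTO-iTreg cells by 0.41 ± 0.09 (limma adjusted p = 0.0062). Rpl21 fell by -0.55 ± 0.10 in TGFβ-iTreg against day 0 cells (limma adjusted p = 0.00219), with values of 16124 to 18275 there against 23529 to 26816. It was higher in mTO-iTreg than in TGFβ-iTreg cells by 0.31 ± 0.10 (limma adjusted p = 0.0373), a call that did not hold under all 7 scalings.

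The genes for proteins of the peptide exit tunnel and its rim that were called between the iTreg groups went in one direction. Of 8 such genes 7 were tested, and 6 were higher and 0 lower in mTO-iTreg than in TGFβ-iTreg cells, with a median log2 change of 0.56. The calls of Rpl19 and Rpl23a did not hold under all 7 scalings. The large subunit as a whole went the same way, with 20 of 46 genes higher and 3 lower. With only 7 genes, these counts describe the genes and not the region. Of all rows, 14.9% were higher and 11.8% lower there. Against day 0, 2 tunnel genes were higher in mTO-iTreg cells and 3 were lower in TGFβ-iTreg cells, beside 19.4% and 8.8% of all rows. Rpl35, which sits at the rim where nascent-chain factors dock, had 11581, 11958 and 11303 normalized counts in mTO-iTreg cells, 6038, 6318 and 5659 in TGFβ-iTreg cells and 7104, 7443 and 6744 in day 0 cells. No group overlapped another, and Rpl35 was higher in mTO-iTreg cells by 0.95 ± 0.10 against TGFβ-iTreg cells (limma adjusted p = 1.3e-05) and by 0.71 ± 0.10 against day 0 (adjusted p = 8.36e-05). Rpl17, which lines the tunnel, was called in all 3 comparisons, and its values were 30979, 25355 and 24623 in mTO-iTreg cells, 15815, 14682 and 14660 in TGFβ-iTreg cells and 22588, 22249 and 19427 in day 0 cells. Its log2 change was 0.33 ± 0.11 in mTO-iTreg against day 0 cells (limma adjusted p = 0.0359), -0.51 ± 0.11 in TGFβ-iTreg against day 0 cells (adjusted p = 0.00676) and 0.84 ± 0.11 between the iTreg groups (adjusted p = 0.000125). Neither of its calls against day 0 held under all 7 scalings.

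The P stalk recruits the elongation factors. Of the 4 genes of the stalk and its base, 3 fell and 0 rose in mTO-iTreg against day 0 cells. Of all rows, 14.5% fell and 19.4% rose there. In TGFβ-iTreg against day 0 cells 2 fell, beside 8.8% of all rows. Between the iTreg groups 1 was lower in mTO-iTreg cells, beside 11.8% of all rows. With only 4 genes, these counts describe the genes and not the region. Rpl12, at the base of the stalk, had 32739, 31392 and 31915 normalized counts in mTO-iTreg cells, 35332, 34403 and 32565 in TGFβ-iTreg cells and 60591, 58113 and 46360 in day 0 cells. The iTreg groups overlapped and both lay under day 0, by -0.77 ± 0.11 in mTO-iTreg cells (limma adjusted p = 0.000144) and -0.68 ± 0.11 in TGFβ-iTreg cells (adjusted p = 0.000949), calls that were lost after quantile normalization. Rplp0, the scaffold of the stalk and a frequent reference gene in PCR, had 17999, 15930 and 15946 in mTO-iTreg cells, 22343, 22391 and 21519 in TGFβ-iTreg cells and 26003, 26238 and 22338 in day 0 cells. It was lower in mTO-iTreg cells by -0.58 ± 0.10 against day 0 (limma adjusted p = 0.000657) and by -0.41 ± 0.10 against TGFβ-iTreg cells (adjusted p = 0.00887), and both calls held under all 7 scalings. Rplp1 had 24923 to 27503 in mTO-iTreg cells, 26557 to 34578 in TGFβ-iTreg cells and 36645 to 47337 in day 0 cells, and fell by -0.60 ± 0.13 in mTO-iTreg cells (limma adjusted p = 0.00246) and by -0.44 ± 0.13 in TGFβ-iTreg cells (adjusted p = 0.03). The first of these calls was lost after quantile normalization, with a change of -0.04. The second ended under 12 of the alternatives, and its direction turned after quantile normalization. Rplp2, the partner of Rplp1 on the stalk, was nearly unread, with 4.65 to 17.2 in any library, and was not called with the deposited scaling. Under 1 of the 7 scalings Rplp2 was called lower in mTO-iTreg than in day 0 cells.

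Rpl5 and Rpl11, which carry the 5S ribosomal RNA into the large subunit and, when free, bind the p53 ligase MDM2, did not move together. Rpl5 had 50068, 44666 and 43214 normalized counts in mTO-iTreg cells, 46304, 45538 and 42028 in TGFβ-iTreg cells and 66048, 72250 and 60669 in day 0 cells. Both iTreg groups lay under day 0, with log2 changes of -0.53 ± 0.11 in mTO-iTreg cells (limma adjusted p = 0.00167) and -0.57 ± 0.11 in TGFβ-iTreg cells (adjusted p = 0.00223), but after quantile normalization the change in mTO-iTreg cells was 0.19 and the call in TGFβ-iTreg cells was lost. Rpl11 had 12593 to 13641, 10413 to 12984 and 12080 to 13967 in mTO-iTreg, TGFβ-iTreg and day 0 cells, ranges that overlapped in all comparisons. Its log2 changes of 0.03 and -0.14 against day 0 were not called. Under 1 of the 7 scalings Rpl11 was called higher in mTO-iTreg than in day 0 cells.

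In the small subunit, 3 genes for proteins of the head were higher in mTO-iTreg cells and lower in TGFβ-iTreg cells than in day 0 cells. The head as a whole did not follow them. Of its 14 genes, 3 rose and 6 fell in mTO-iTreg against day 0 cells, beside 19.4% and 14.5% of all rows. In TGFβ-iTreg against day 0 cells 0 rose and 4 fell, beside 9.78% and 8.8%. Between the iTreg groups 4 were higher and 3 lower, beside 14.9% and 11.8%. Of the 17 genes of the body and platform, 2 rose and 7 fell in mTO-iTreg against day 0 cells. Rps16, whose tail reaches the P site (chr7:28350652-28353155, plus strand), had 40643, 36765 and 35352 normalized counts in mTO-iTreg cells, 17340, 17686 and 16186 in TGFβ-iTreg cells and 28682, 29959 and 24234 in day 0 cells. Rps15, another head protein whose tail reaches the decoding centre, had 14704, 13968 and 15036 in mTO-iTreg cells, 7344, 7468 and 6855 in TGFβ-iTreg cells and 10888, 11752 and 9098 in day 0 cells. Rps19, mutated in many people with Diamond-Blackfan anaemia, had 19763, 15877 and 15646 in mTO-iTreg cells, 8682, 9676 and 8819 in TGFβ-iTreg cells and 13036, 14521 and 11799 in day 0 cells. For each of the 3 genes the groups did not overlap, with day 0 in the middle.

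Between the iTreg groups, Rps16 was higher in mTO-iTreg cells by 1.14 ± 0.11 (limma adjusted p = 8.34e-06), Rps15 by 1.01 ± 0.11 (adjusted p = 2.17e-05) and Rps19 by 0.91 ± 0.12 (adjusted p = 0.000101). Against day 0 in mTO-iTreg cells the rises were 0.45 ± 0.11, 0.47 ± 0.11 and 0.38 ± 0.12 (limma adjusted p = 0.00576, 0.00461 and 0.0239). In TGFβ-iTreg cells the falls were -0.69 ± 0.11, -0.54 ± 0.11 and -0.53 ± 0.12 (limma adjusted p = 0.000702, 0.00383 and 0.00708), of which that of Rps16 held under all 7 scalings. The rise of Rps19 against day 0 lost its call without mTO-iTreg replicate 1, without day 0 replicate 1 and without day 0 replicate 3. Rps2, by the mRNA entry channel, rose against day 0 in mTO-iTreg cells by 0.65 ± 0.13 (limma adjusted p = 0.00151) and was also higher there than in TGFβ-iTreg cells, by 0.49 ± 0.13 (adjusted p = 0.0128). Its values were 16353, 13133 and 16924 in mTO-iTreg cells, 11735, 12063 and 9321 in TGFβ-iTreg cells and 9528, 10553 and 9320 in day 0 cells.

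Rpsa and Rps25 showed the largest falls of the well-read members. Rpsa, the 40S protein also known as the laminin receptor (chr9:120127689-120132369, plus strand), had 36173, 24342 and 31149 normalized counts in mTO-iTreg cells, 64451, 67264 and 52706 in TGFβ-iTreg cells and 70172, 78430 and 65575 in day 0 cells. It was lower in mTO-iTreg cells by -1.24 ± 0.15 against day 0 (limma adjusted p = 2.72e-05) and by -1.02 ± 0.15 against TGFβ-iTreg cells (adjusted p = 0.000205). Rps25, a head protein that some viral RNAs need to start translation without a cap (chr9:44407139-44410427, plus strand), had 11069, 10082 and 11178 in mTO-iTreg cells, 21679, 21520 and 17638 in TGFβ-iTreg cells and 21299, 23902 and 22841 in day 0 cells. The mTO-iTreg values lay under all others, by -1.07 ± 0.11 against day 0 (limma adjusted p = 8.04e-06) and -0.91 ± 0.11 against TGFβ-iTreg cells (adjusted p = 4.96e-05), while the TGFβ-iTreg and day 0 ranges overlapped for both genes. Rps3a1, a protein of the platform near the mRNA exit, also fell, with 30470, 30922 and 27010 in mTO-iTreg cells, 47106, 42594 and 44259 in TGFβ-iTreg cells and 53019, 57175 and 51378 in day 0 cells, a log2 change of -0.87 ± 0.10 against day 0 (limma adjusted p = 2.23e-05) that lost its call after quantile normalization. Rps3, at the mRNA entry channel, fell by -0.64 ± 0.10 (limma adjusted p = 0.000375), with 7302 to 7581 in mTO-iTreg cells, 10679 to 11094 in TGFβ-iTreg cells and 10127 to 12588 in day 0 cells.

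Rps29, a zinc-binding protein of the head, was lower in both iTreg groups by about equal amounts. It had 13627, 11412 and 10598 normalized counts in mTO-iTreg cells, 10896, 12439 and 10285 in TGFβ-iTreg cells and 22567, 22967 and 21347 in day 0 cells. The log2 change against day 0 was -0.92 ± 0.11 in mTO-iTreg cells (limma adjusted p = 4.79e-05) and -1.0 ± 0.11 in TGFβ-iTreg cells (adjusted p = 7.32e-05), and both held under all 7 scalings. Between the iTreg groups it was 0.08 ± 0.11 (limma adjusted p = 0.642). Rps24 fell by -0.48 ± 0.10 in mTO-iTreg cells and by -0.60 ± 0.10 in TGFβ-iTreg cells (limma adjusted p = 0.00178 and 0.000858), with 10949 to 12393, 10205 to 11014 and 15511 to 17403 in mTO-iTreg, TGFβ-iTreg and day 0 cells. The call of Rps24 in mTO-iTreg cells did not hold under all 7 scalings. Rps23, a protein of the decoding centre, fell in TGFβ-iTreg against day 0 cells by -0.59 ± 0.14 (limma adjusted p = 0.0113), a call lost with equal totals. Rps6, the protein whose phosphorylation by S6 kinase reports mTORC1 activity, was not called in any comparison with the deposited scaling. It had 54842 to 65588, 46238 to 53290 and 52150 to 61312 in the 3 groups. Neither was Rps27a called, which is made fused to ubiquitin, with 19680 to 22034, 16320 to 19625 and 19749 to 22432. Under other scalings both were called higher in mTO-iTreg cells. For Rps6 this held under 3 of the 7 scalings against day 0 and under 1 against TGFβ-iTreg cells. For Rps27a it held under 1 in each of these comparisons.

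**Figure D4:**
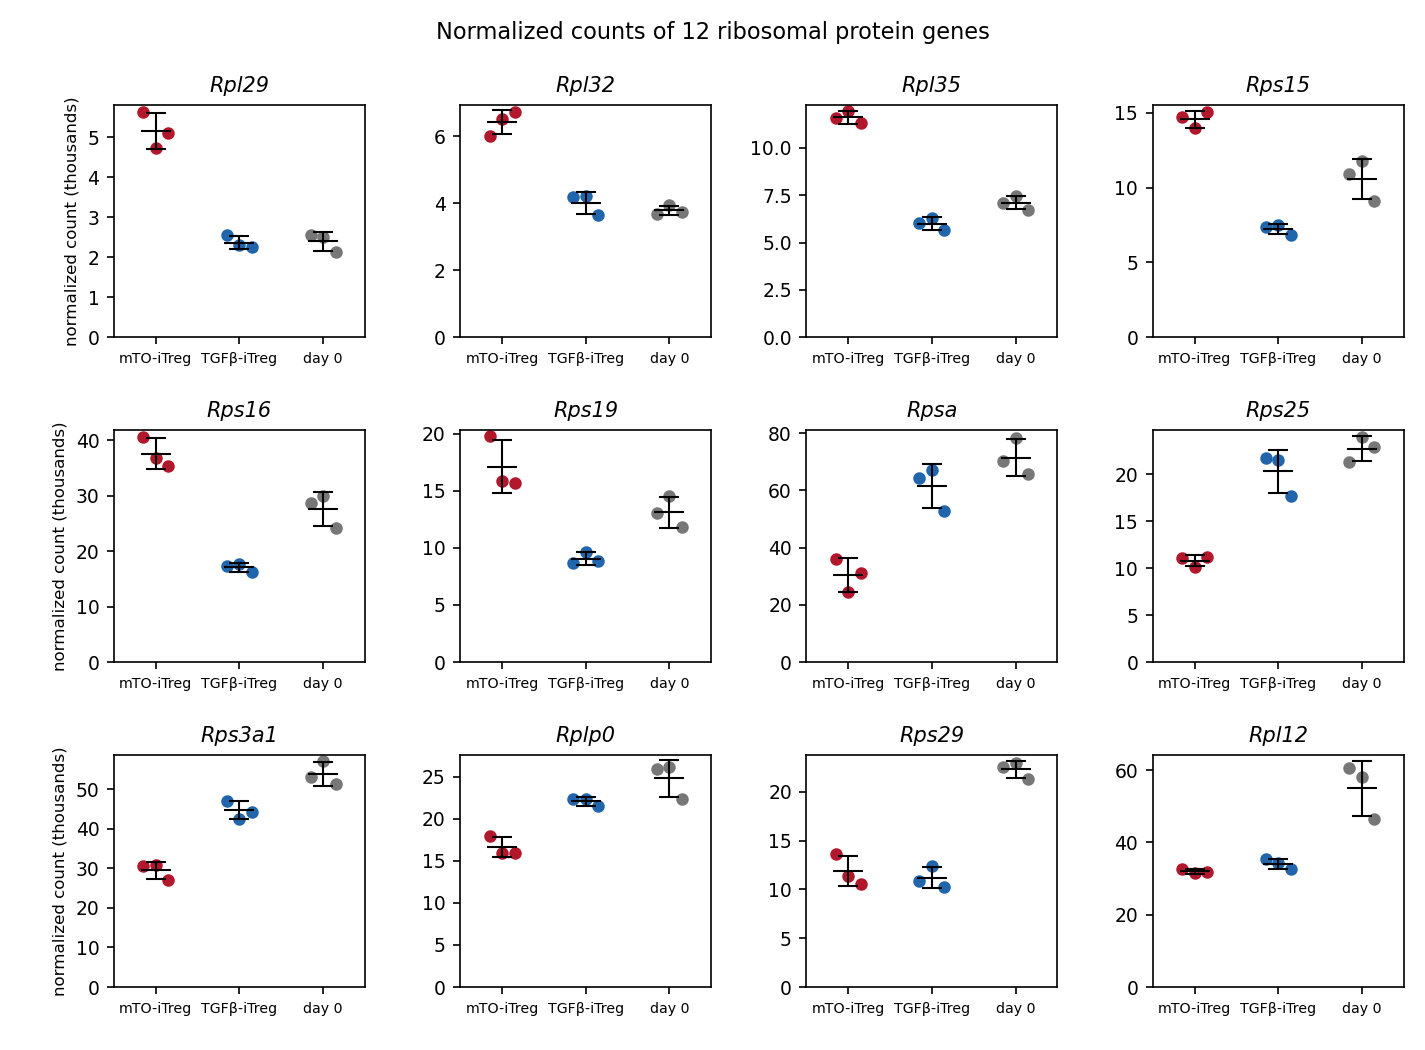
Normalized counts, divided by 1000, of 12 ribosomal protein genes in the 3 groups. Coloured points are single libraries and black bars the mean ± SD (n = 3), on axes that start at 0. Rpl29 and Rpl32 stand apart in mTO-iTreg cells, Rps15, Rps16 and Rps19 have day 0 between the iTreg groups, and Rps29 and Rpl12 are alike in both iTreg groups and lower than at day 0.

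The largest fitted changes belonged to members with few reads. Of the 79, 10 had a mean under 1000 normalized counts, among them Rpl26, Rps4y2, Rplp2, Rpl37, Rps15a, Rpl34, Rpl30, Rps27 and Rpl31. Rps27, a zinc-finger protein of the 40S platform, had 94.8, 113 and 95 in mTO-iTreg cells, 14.8, 14.9 and 16.3 in TGFβ-iTreg cells and 19.3, 18.8 and 16.9 in day 0 cells, and was higher in mTO-iTreg cells by 2.40 ± 0.41 against day 0 (limma adjusted p = 0.000571) and by 2.64 ± 0.41 against TGFβ-iTreg cells (adjusted p = 0.000422). Rpl30 had 17.7, 6.20 and 23.2 in mTO-iTreg cells, 49.2, 36.6 and 54.8 in TGFβ-iTreg cells and 38.6, 61.8 and 64.4 in day 0 cells. Its log2 change was -1.88 ± 0.52 against day 0 (limma adjusted p = 0.0124) and -1.67 ± 0.52 against TGFβ-iTreg cells (adjusted p = 0.0289), and the second call was lost without mTO-iTreg replicate 2, TGFβ-iTreg replicate 1 or TGFβ-iTreg replicate 3. Rpl34 had 46.7, 37.3 and 30.1 in TGFβ-iTreg cells against 15.8, 5.38 and 12.7 in day 0 cells, a change of 1.76 ± 0.53 (limma adjusted p = 0.033) that lost its call under 8 alternatives, each TGFβ-iTreg library left out among them. Rps15a, a 40S protein with 22.5, 21.7 and 17.3 in mTO-iTreg cells, 0, 29.8 and 17.8 in TGFβ-iTreg cells and 35.1, 48.4 and 26.4 in day 0 cells, was not called, although its fitted change between TGFβ-iTreg and day 0 cells was -2.13 ± 0.99 (limma adjusted p = 0.154). Over the 69 well-read members alone, 20 rose and 20 fell in mTO-iTreg against day 0 cells, and 1 rose and 22 fell in TGFβ-iTreg against day 0 cells.

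**Figure D5:**
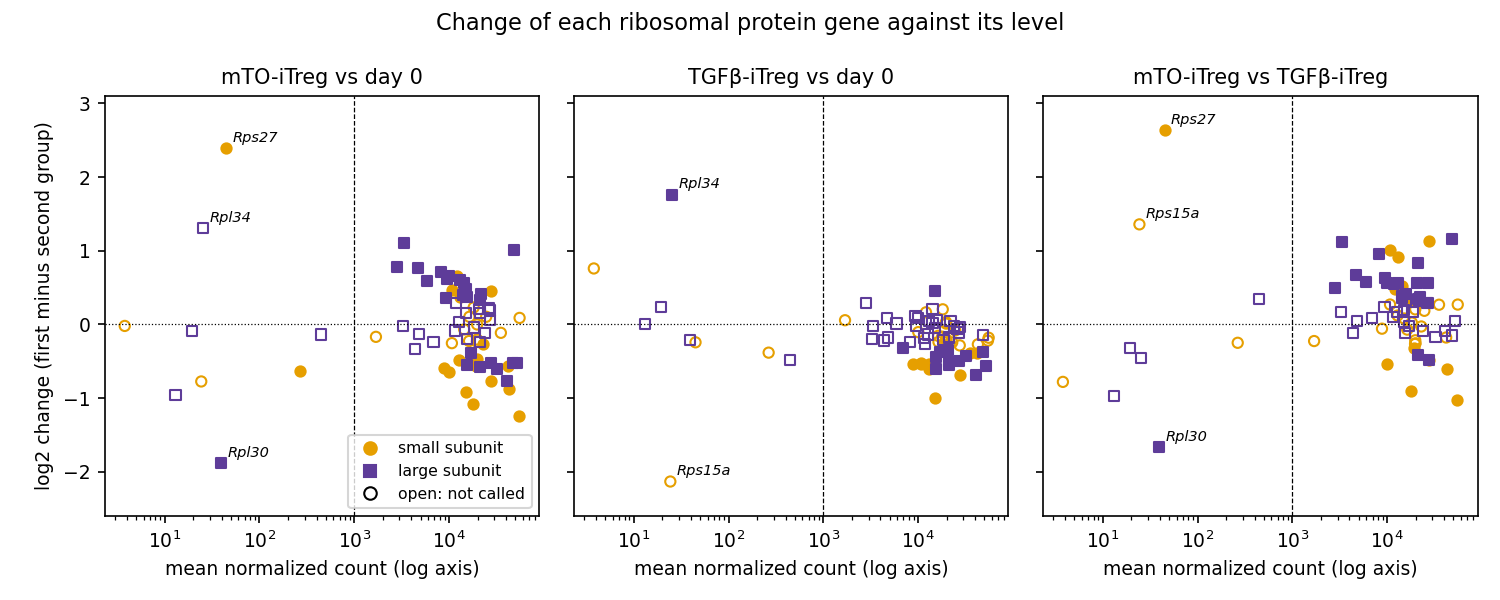
Log2 change of each tested gene (vertical axis) against its mean normalized count over the 9 libraries (horizontal log axis) in the 3 comparisons. Circles are small-subunit and squares large-subunit genes, open symbols were not called, and the dashed line stands at 1000. Rps27, Rpl30, Rpl34 and Rps15a, named on the plot, lie left of the line with changes beyond 1 in either direction.

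Counts of a ribosomal protein gene can be divided among copies, since the mouse genome holds many processed pseudogenes of these mRNAs. The libraries were read at the 3′ end, so the last 200 bases of each member were compared with all other genes of GENCODE M21 in exact windows of 50 bases. Of 78 members searched, 50 shared at least 1 window with another gene and 28 shared none. Rpl12, Rpsa, Rps25 and Rps16 were among those that shared none. Rps27 shared 100% of its windows with 6 genes, Rpl10 100% with 12, Rpl35 99.3% with 4, Rps2 78.1% with 40, Rps27a 78.1% with 11, Rps6 72.2% with 10 and Rpl30 70.2% with 16. Rpl24 shared 68.9% with 6, Rps3a1 67.5% with 6, Rpl7a 67.5% with 40, Rps15 60.9% with 4, Rpl3 60.9% with 6 and Rpl7 57.0% with 6. Among the other genes described above, Rpl34, Rplp1, Rps29, Rpl32, Rpl29, Rpl22, Rps24, Rps19 and Rpl17 shared between 27.2% and 46.4%. The division of reads is uncertain for all of these genes. Shared windows were found in 5 of the 9 searched members under 1000 and in 45 of the 69 others. In mTO-iTreg against day 0 cells, 17 of 21 higher, 13 of 22 lower and 19 of 35 members that were not called shared a window. Only 5 rows of pseudogenes named after ribosomal proteins were listed, with at most 50.9 normalized counts in any library.

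The promoters of these genes differ from most others in the letters around the start of transcription. Of the 79 members, 58 were matched in a RefSeq promoter table (build GRCm38.p6), which holds 250 bases before and 50 after each annotated start. A run of at least 6 pyrimidines (C or T, on the transcribed strand) that reached within 10 bases of a start was present in 35 of 58 members (60.3%), against 32.7% of 27025 genes, and a run of at least 8 in 27 members (46.6%) against 15.8%. The letters CCGGAAG, the core bound by ETS factors, were found on either strand in 24 members (41.4%) against 9.93% of genes, AAGATGG, the core bound by YY1, in 9 (15.5%) against 7.28%, and TATAAA, on the transcribed strand 40 to 16 bases before the start, in 0 of 58 against 2.41%. The 30 bases around the start are shown for 8 members on which the comparisons above turned, with the longest pyrimidine run near the start in capitals. Each reads 5′ to 3′ on the gene's strand, with the start as base 16. The first 3 hold a run of at least 6 and the last 5 do not. Rps24 has another listed start (chr14:24490738-24490767), where the longest run was 2. Genes with several starts were counted by their longest run.
Rpl35 (chr2:39005117-39005146, minus strand): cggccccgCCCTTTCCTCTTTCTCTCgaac
Rps24 (chr14:24490663-24490692, plus strand): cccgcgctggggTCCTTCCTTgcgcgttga
Rpl12 (chr2:32961697-32961726, plus strand): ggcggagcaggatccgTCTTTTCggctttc
Rps16 (chr7:28350674-28350703, plus strand): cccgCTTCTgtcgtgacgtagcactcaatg
Rps15 (chr10:80292416-80292445, plus strand): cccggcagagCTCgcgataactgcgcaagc
Rplp0 (chr5:115559452-115559481, plus strand): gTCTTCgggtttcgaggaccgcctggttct
Rpl5 (chr5:107900513-107900542, plus strand): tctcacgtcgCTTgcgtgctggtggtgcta
Rpsa (chr9:120127751-120127780, plus strand): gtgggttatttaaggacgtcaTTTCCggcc
Rpl35, with the longest run shown, was higher in mTO-iTreg cells. Rps24 and Rpl12, also with a run at the start shown, were lower in both iTreg groups than at day 0. Among members in the promoter table, a run of at least 6 was present in 9 of 15 that rose, 6 of 16 that fell and 20 of 26 that were not called in mTO-iTreg against day 0 cells. In mTO-iTreg against TGFβ-iTreg cells it was present in 12 of 18 that were higher, 2 of 7 that were lower and 21 of 32 that were not called. These matches describe letters near annotated starts, with no test.

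Paralogs and the proteins outside the naming rule gave a different picture from their relatives. Rps27l, a close copy of Rps27 that p53 induces in human cells, had 1882, 1493 and 2066 normalized counts in mTO-iTreg cells, 2189, 1843 and 2402 in TGFβ-iTreg cells and 577, 648 and 788 in day 0 cells. It rose in both iTreg groups, by 1.43 ± 0.16 in mTO-iTreg cells (limma adjusted p = 1.84e-05) and by 1.68 ± 0.16 in TGFβ-iTreg cells (adjusted p = 1.57e-05), and did not pass the test between them (-0.25 ± 0.16, adjusted p = 0.277). Rpl7l1, a nucleolar relative of Rpl7, had 243 to 288, 268 to 374 and 193 to 211 in the 3 groups, and rose in TGFβ-iTreg against day 0 cells by 0.72 ± 0.19 (limma adjusted p = 0.0164), a call that ended without TGFβ-iTreg replicate 2 or 3. Rpl39l had 0 to 46.5 and was not called, and Rpl22l1 and Rpl10l, with at most 3.16 and 8.77 in any library, were not tested. Fau and Gnb2l1 (Rack1), whose products are ribosomal proteins under other names, were not called in any comparison. Fau had 11777 to 13026 normalized counts in mTO-iTreg cells, 11110 to 12460 in TGFβ-iTreg cells and 12596 to 14267 in day 0 cells, and Gnb2l1 had 11108 to 12262, 10364 to 11829 and 10722 to 11967.

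Other mRNAs of the 5′ TOP class were set beside the members. Of 22 listed genes, 9 rose and 6 fell in mTO-iTreg against day 0 cells (median log2 change 0.02), beside 19.4% and 14.5% of all rows. In TGFβ-iTreg against day 0 cells 4 rose and 1 fell (0.10), beside 9.78% and 8.8% of all rows. Between the iTreg groups 5 were higher and 3 lower (0.03), beside 14.9% and 11.8% of all rows. Gas5, a non-coding host of small nucleolar RNAs whose own spliced RNA begins with a TOP run, had 10506, 8236 and 10805 normalized counts in mTO-iTreg cells, 3982, 3886 and 4094 in TGFβ-iTreg cells and 2695, 2927 and 3311 in day 0 cells. It was higher in mTO-iTreg cells by 1.72 ± 0.12 against day 0 (limma adjusted p = 5.02e-07) and by 1.29 ± 0.12 against TGFβ-iTreg cells (adjusted p = 8.41e-06). Eef2, the elongation factor that acts at the stalk, went the other way, with 10613, 9193 and 10315 in mTO-iTreg cells, 19625, 20837 and 17433 in TGFβ-iTreg cells and 16788, 15018 and 15490 in day 0 cells, a log2 change of -0.94 ± 0.11 between the iTreg groups (limma adjusted p = 3.08e-05). Tpt1 fell in both iTreg groups, by -0.72 ± 0.11 in mTO-iTreg cells and by -0.63 ± 0.11 in TGFβ-iTreg cells (limma adjusted p = 0.000182 and 0.00128), the second call being lost after quantile normalization.

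Factors that build ribosomes were more often lower than higher in mTO-iTreg cells. Of 52 assembly factors tested, 17 were lower and 2 higher than at day 0 (median -0.45), where 14.5% and 19.4% of all rows were called. Against TGFβ-iTreg cells 13 were lower and 1 higher (median -0.35), beside 11.8% and 14.9% of all rows. In TGFβ-iTreg against day 0 cells, 3 rose and 3 fell (median -0.15), beside 9.78% and 8.8% of all rows. Emg1, a methyltransferase of the small-subunit RNA, had 350, 404 and 412 normalized counts in mTO-iTreg cells, 898, 1112 and 1051 in TGFβ-iTreg cells and 1242, 1172 and 981 in day 0 cells. The mTO-iTreg libraries lay under all others, by -1.54 ± 0.15 against day 0 (limma adjusted p = 4.94e-06) and -1.39 ± 0.15 against TGFβ-iTreg cells (adjusted p = 1.78e-05). Rrs1, which works with Rpl5 and Rpl11 in loading the 5S particle, fell by -1.64 ± 0.28 in mTO-iTreg against day 0 cells (limma adjusted p = 0.000485). Wdr12, of the PeBoW complex that matures the large subunit, had 88 to 134 normalized counts in mTO-iTreg cells, 269 to 325 in TGFβ-iTreg cells and 109 to 137 in day 0 cells, and rose in TGFβ-iTreg against day 0 cells by 1.21 ± 0.24 (limma adjusted p = 0.00325).

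Of 14 genes tested for RNA polymerase I and its factors, which transcribe ribosomal RNA, 2 rose and 3 fell in mTO-iTreg against day 0 cells. Of all rows, 19.4% rose and 14.5% fell there. In TGFβ-iTreg against day 0 cells 1 rose and 1 fell, beside 9.78% and 8.8% of all rows. Between the iTreg groups 1 was higher and 3 were lower, beside 14.9% and 11.8% of all rows. With so few genes these counts give no result about the list as a whole. Ubtf, the factor that holds ribosomal DNA open, had 107, 132 and 70.4 normalized counts in mTO-iTreg cells, 212, 243 and 189 in TGFβ-iTreg cells and 191, 220 and 206 in day 0 cells, and fell by -1.03 ± 0.25 against day 0 (limma adjusted p = 0.00594). Taf1d, a subunit of the selectivity factor whose gene also hosts small nucleolar RNAs, rose by 1.27 ± 0.21 in the same comparison (limma adjusted p = 0.000484).

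Of 27 genes tested for mTORC1, Myc and their regulators, 8 rose and 5 fell in mTO-iTreg against day 0 cells. Of all rows, 19.4% rose and 14.5% fell there. In TGFβ-iTreg against day 0 cells 7 rose and 2 fell, beside 9.78% and 8.8% of all rows. Between the iTreg groups 7 were higher and 6 lower, beside 14.9% and 11.8% of all rows. Eif4ebp1, the cap-binding repressor that mTORC1 inactivates, had 570, 781 and 767 normalized counts in mTO-iTreg cells, 101, 107 and 127 in TGFβ-iTreg cells and 15.8, 64.5 and 32.7 in day 0 cells. It was higher by 4.39 ± 0.38 in mTO-iTreg against day 0 cells (limma adjusted p = 2.39e-06) and by 2.64 ± 0.38 against TGFβ-iTreg cells (adjusted p = 0.000247). Myc, which drives the transcription of ribosomal protein genes in many cells, had 452, 586 and 415 in mTO-iTreg cells, 922, 898 and 700 in TGFβ-iTreg cells and 395, 398 and 305 in day 0 cells. Myc rose by 1.20 ± 0.18 in TGFβ-iTreg against day 0 cells (limma adjusted p = 0.000563) and was lower in mTO-iTreg than in TGFβ-iTreg cells by -0.80 ± 0.18 (adjusted p = 0.00546). Its partner Max was also lower in mTO-iTreg than in TGFβ-iTreg cells, by -1.57 ± 0.15 (limma adjusted p = 8.34e-06), and Mxd1, which competes with Myc for Max, was higher by 1.28 ± 0.32 (adjusted p = 0.0094).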

How the data were processed

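RNA of 9 libraries was read at the 3′ end by a modified CEL-Seq protocol, per the labels' protocols, and mapped with BWA to mm10, per the submitters' processing notes, which also name DESeq2. For versions, strand and molecular identifiers the sources used here give nothing. The deposited values are gene counts after division by each library's size factor (another unit than raw counts): every value was a whole multiple of its library's step within 0.1. They are called normalized counts, and counts and totals were recovered with that step. They are not per length, and levels were not compared between genes. A row needed at least 5 in at least 3 libraries. limma 3.58.1 (R 4.3.3; lmFit and eBayes with a variance trend on log2 of the value + 1) was fitted to 3 group means over all 10983 rows, with Benjamini-Hochberg adjustment, and was checked on simulated data. Genes were named by a rule: per comparison and subunit up to 4 called genes with the largest rise and fall, some fixed genes, the paralogs, and up to 3 called genes per related list. Members and lists were chosen with earlier results of these data known. Replicate numbers were not treated as pairs, since the labels do not say whether libraries of the same number belong together. A few genes are not reported here by name.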

Additional observations from a re-analysis of the deposited data

How the results depend on the processing

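Other processing settings were tried, 2 of them chosen after seeing the data (limma-voom on recovered counts and the members with a mean of at least 1000), and the counts of members moved with the scaling and with the variance trend. Members higher in mTO-iTreg against day 0 cells numbered 32 with equal totals, 35 after quantile normalization and 33 with equal totals outside ribosomal protein genes, and members lower numbered 13 after quantile normalization. Their median log2 change in that comparison was 0.13, 0.20 and 0.16 under the same 3 settings and 0.0393 with equal totals outside mitochondrial genes and Rn45s. In TGFβ-iTreg against day 0 cells, members higher numbered 11 with equal totals, 12 after quantile normalization, 10 and 5 with equal totals outside ribosomal protein genes and outside mitochondrial genes and Rn45s, 9 when centred on the members, 0 without the shallowest day 0 and TGFβ-iTreg libraries, and 1 with no filter, with only the 2 groups compared, with no variance trend, by limma-voom and among members of at least 1000. Members lower there numbered 9, 5, 9, 14 and 14 under those 5 scalings, 5 with no variance trend and 13 without the shallowest libraries, and the median was 0.0488, 0.0650, 0.0455, -0.0700 and -0.00334. In mTO-iTreg against TGFβ-iTreg cells, members higher numbered 13 with no variance trend, members lower 16 when centred on the members, and the median 0.0881 with TMM factors and 0.0098 when centred. Leaving out 1 library at a time gave 18 to 22 higher and 20 to 23 lower in mTO-iTreg against day 0 cells, 1 to 2 and 16 to 23 in TGFβ-iTreg against day 0 cells, and 21 to 27 and 7 to 9 between the iTreg groups. Over all rows, calls in TGFβ-iTreg against day 0 cells were 52.6% higher as deposited and 75.4% higher with equal totals. After quantile normalization the change of Rpl5 (0.19) and of Rps27a (0.33) in mTO-iTreg against day 0 cells and of Rplp1 (0.10) in TGFβ-iTreg against day 0 cells reversed. The cause of these shifts was not tested. Of the named genes' alternatives, 899 of 931, 713 of 791 and 870 of 883 kept direction and call in the 3 comparisons. With a replicate block 22 members were higher and 21 lower in mTO-iTreg against day 0 cells, 2 and 22 in TGFβ-iTreg against day 0 cells, and 27 and 9 between the iTreg groups. Libraries of the same number correlated at -0.050 to 0.060 after group means were removed, and 5 of 9 were closest to their own number. Deviations from means of 3 libraries cannot decide whether libraries of the same number belong together, and the labels do not say. The planned edgeR test on recovered counts was not run. The depth of the shallowest TGFβ-iTreg (2078223 counts) and day 0 (2267922) libraries limits the 10 members with a mean under 1000.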
